A study of Mus musculus with 12 samples.

Results

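The members described here are 10 genes of the nuclear factor kappa B (NF-kB) pathway, chosen by symbol from the 27998 genes in the deposited matrices. They are the subunits Nfkb1, Nfkb2, Rela and Relb, the feedback genes Nfkbia, Nfkbiz, Tnfaip3 and Birc3, and the tumour necrosis factor (TNF) receptors Tnfrsf1a and Tnfrsf1b. All 10 were found, and all 10 passed the filter on low counts in every comparison.

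The study sequenced single CD45-negative cells, the non-immune stroma, from the hind limb joints of C57BL/6 wild-type mice (WT). Arthritis was induced with 100 µl of intravenous K/BxN serum, a passive model in which joint swelling peaks and then subsides (serum transfer-induced arthritis, STIA). There were 12 libraries. Of these, 3 were labelled rest, taken at day 0 from mice given no serum, and 3 were labelled peak, taken from day 7 to day 9. The label resolving stood for day 15 and the label resolved for day 22, again with 3 libraries for each. Each library was made from the pooled joints of 3 animals after enzymatic digestion, so n counts pools. Values are unique molecular identifiers (UMIs), which mark single captured RNA molecules, summed over the cells of a type in a library and given as CPM, a gene's UMIs scaled to an equal total in every sum.

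NF-kB is a family of transcription factors held in the cytoplasm by inhibitors until a signal such as TNF or interleukin 1 releases them. RelA pairs with the p50 product of Nfkb1 in the canonical branch, and RelB with the p52 product of Nfkb2 in the non-canonical branch. Several targets of the factor feed back on it, among them IκBα (Nfkbia), the nuclear regulator IκBζ (Nfkbiz), the ubiquitin-editing enzyme A20 (Tnfaip3) and the ubiquitin ligase cIAP2 (Birc3).

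RefSeq promoter windows on GRCm38.p6, 250 bases before to 50 bases after a start, were at hand for 7 of the 10 members. The kappa-B consensus was searched by name on both strands, and 3 of the 7 members held a match, against 9.55% of 27025 genes with a window. The 250 upstream bases of one window with a match are shown for each of these 3 genes, a subunit and 2 inhibitors. Capitals mark the matches, which can overlap, and a match is a description of the letters, not a site.
Nfkbia, chr12:55492648-55492897, minus strand: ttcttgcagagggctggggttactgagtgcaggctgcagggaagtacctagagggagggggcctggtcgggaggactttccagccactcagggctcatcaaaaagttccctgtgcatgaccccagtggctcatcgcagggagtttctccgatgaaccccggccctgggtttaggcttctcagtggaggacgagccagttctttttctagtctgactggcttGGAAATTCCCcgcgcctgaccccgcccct
Tnfaip3, chr10:19015411-19015660, minus strand: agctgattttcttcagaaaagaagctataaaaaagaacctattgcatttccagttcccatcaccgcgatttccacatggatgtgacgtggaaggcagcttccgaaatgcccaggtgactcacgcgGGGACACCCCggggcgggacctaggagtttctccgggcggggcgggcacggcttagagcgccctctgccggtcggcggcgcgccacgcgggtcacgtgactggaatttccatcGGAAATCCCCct
Nfkb2, chr19:46304487-46304736, plus strand: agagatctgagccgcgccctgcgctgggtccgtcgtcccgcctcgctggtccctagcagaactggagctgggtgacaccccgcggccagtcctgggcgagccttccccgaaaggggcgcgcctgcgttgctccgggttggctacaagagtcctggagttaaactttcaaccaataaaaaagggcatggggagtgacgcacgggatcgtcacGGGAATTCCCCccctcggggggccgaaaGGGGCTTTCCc
Counted from the start, the first base of the match lay at -29 in Nfkbia, at -125 and -12 in Tnfaip3, and at -39 and -11 in Nfkb2. Each window shown thus held a match near its start, while another window of Tnfaip3 held none. Windows of Tnfrsf1a, Tnfrsf1b, Birc3 and Rela held no match in these letters.

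All 10 members are protein-coding genes, placed here on mm10 by GENCODE M21. On the plus strand lie Nfkb2 (chr19:46304320-46312385), Rela (chr19:5637483-5648130) and Tnfrsf1a (chr6:125349362-125362484). On the minus strand lie Nfkb1 (chr3:135584655-135691547), Relb (chr7:19606217-19629438), Nfkbia (chr12:55489410-55492647), Nfkbiz (chr16:55811375-55838899), Tnfaip3 (chr10:19000910-19015657), Birc3 (chr9:7848699-7873186) and Tnfrsf1b (chr4:145213463-145246870).

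Of 21042 deposited cells, 20060 passed the limits on genes and UMIs, between 1227 and 2747 per library, with 7468914 to 16566202 UMIs per library. Every library had a median of 5358 UMIs per deposited cell. The libraries carry barcode suffixes 1 to 12, each its own, so barcodes with their suffix cannot be shared between libraries. The suffixes form 4 runs of 3 (1 to 3, 4 to 6, 7 to 9 and 10 to 12), and each run holds 3 different labels. All 12 libraries had as nearest fibroblast profile a library of their own run. In 0 of 12 was it a library of the same label, which follows from the first count, since no run repeats a label. The nearest profiles thus follow the run, and whether the labels are right was not tested. Every result by stage below rests on the labels as deposited. Comparisons of cell types within libraries do not use the labels.

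The cells formed 26 clusters, made without the members among the variable genes, and were named from markers. The fibroblast-like cells numbered 11855 (59.1%) in 11 clusters. Tenocyte-like (1771), vascular endothelial-like (1767), osteoblast-like (1379), chondrocyte-like (1074), proliferating (691), perivascular-like (658), muscle-like (263) and lymphatic endothelial-like (186) cells were compared with them. The immune marker Ptprc, which encodes CD45, had at most 0.2 CPM in the fibroblasts of any library, where immune markers summed to between 4.24 and 18.6 CPM.

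The first question was how the members were set in the different cells of the joint. In one edgeR quasi-likelihood model with the library as a block, 32 of 80 tests of a member against fibroblasts passed the threshold, an adjusted p-value under 0.05 over 8805 genes with a log2 fold change beyond 0.5. Muscle-like cells had the most members higher, 7 of 10 where 12.3% of all genes were higher and 29.7% lower (42% either way), and lymphatic endothelial-like cells the most lower, 5 of 10 where 27.4% of genes were lower and 14.6% higher (42.1% either way). The other types had 2 members higher and 2 lower in chondrocyte-like cells (14.9% and 19.3% of genes), 0 and 4 in osteoblast-like cells (12.3% and 16.3%), 4 and 1 in perivascular-like cells (17.4% and 25.7%), 0 and 2 in proliferating cells (10.9% and 16.3%), 2 and 0 in tenocyte-like cells (7.83% and 9.99%) and 2 and 1 in vascular endothelial-like cells (27.4% and 27.1%). In either direction 34.2% of genes passed in chondrocyte-like, 28.7% in osteoblast-like, 43.1% in perivascular-like, 27.2% in proliferating, 17.8% in tenocyte-like and 54.5% in vascular endothelial-like cells. The vascular count of 3 members lay below that share. The chondrocyte-like, lymphatic endothelial-like, perivascular-like, proliferating and tenocyte-like counts lay close to it, and the osteoblast-like and muscle-like counts lay above it. The total of 32 of 80 is to be read beside these shares.

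**Figure D1:**
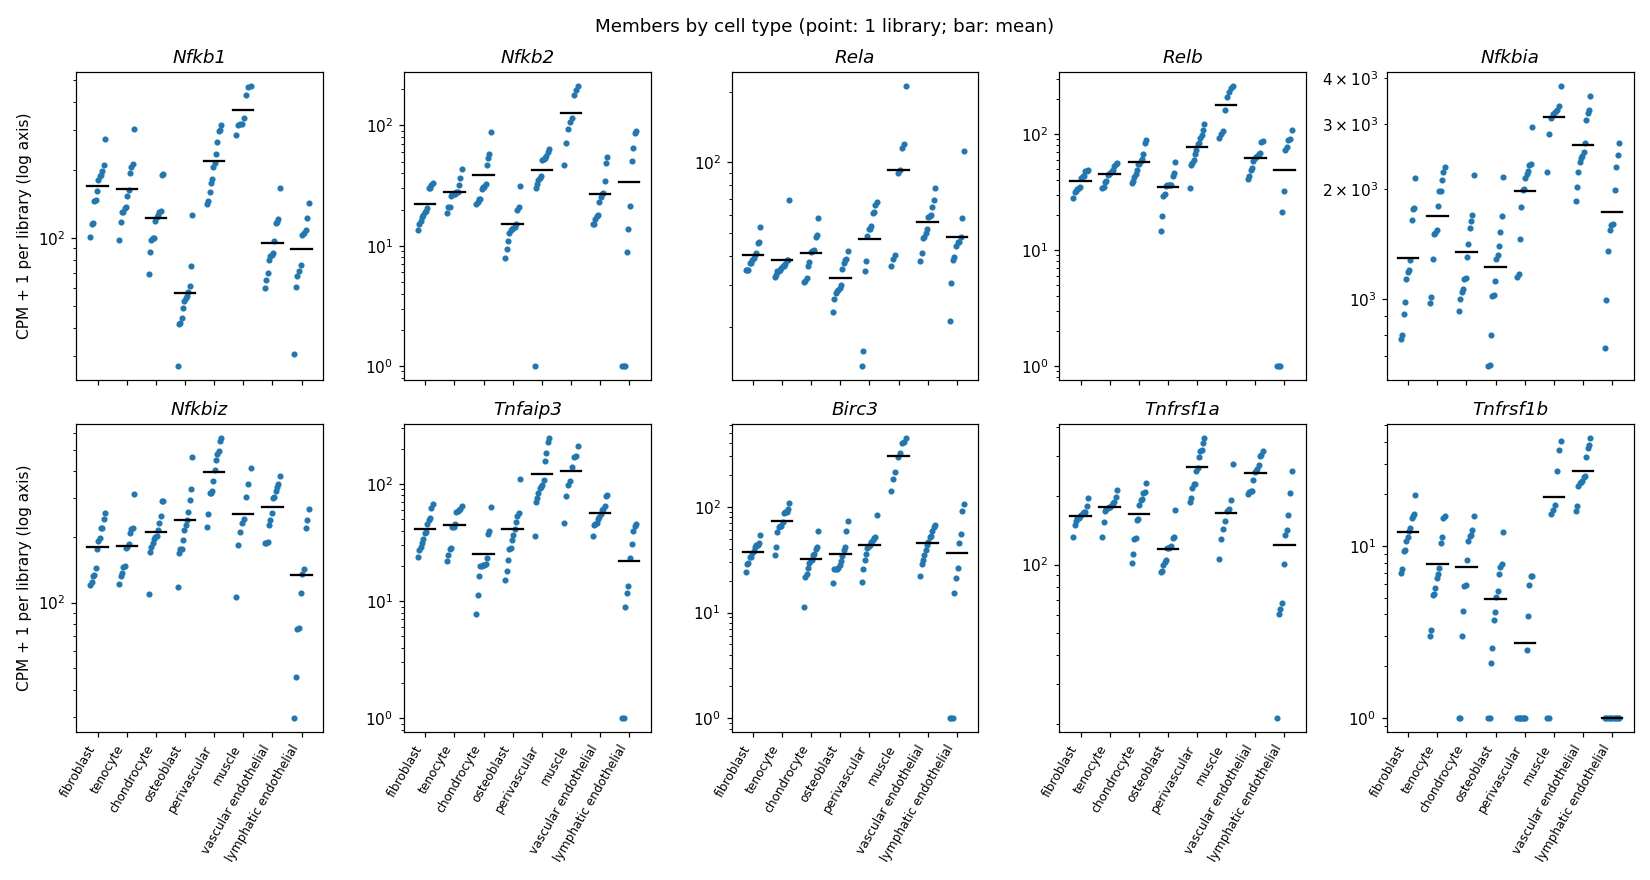
CPM + 1 of each member (log axis) in 8 cell types; each point is 1 library and each bar the mean over libraries. Muscle-like cells lie highest for Nfkb1, Nfkb2, Relb and Birc3, and Tnfrsf1b lies at 0 UMIs in all 10 lymphatic endothelial libraries.

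Among the subunits, Nfkb1, the precursor of p50, ranged from 99.9 CPM over a median of 170.4 to 273.7 in the fibroblasts of the 12 libraries. It ranged from 26.1 over 52.4 to 125.2 in osteoblast-like cells, a log2 difference of -1.73 (SE 0.14, edgeR adjusted p = 1.24e-18). The ranges overlap between libraries, but osteoblasts were lower within 12 of 12 libraries. Nfkb1 also fell in vascular endothelial-like cells (log2 -1.12, SE 0.14), lymphatic endothelial-like cells (-1.48, SE 0.21) and proliferating cells (-0.69, SE 0.17). For the proliferating cells, the mean difference of log2(CPM + 1) within 6 libraries was -0.36, short of the threshold. Nfkb1 was higher than in fibroblasts in 2 of those 6.

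Muscle-like cells, led by the myogenic genes Myod1, Pax7 and Myf5, had 287 to 472 CPM of Nfkb1 over 8 libraries, with a median of 331. All these values lay above the pooled fibroblasts of every library, but fibroblast cluster 5, described below, had 430 to 662 CPM. The log2 difference of muscle-like cells from the pooled fibroblasts was 1.05 (SE 0.17). The non-canonical subunits differed by more: Nfkb2 had 45.8 to 212 CPM in muscle-like cells against 12.6 to 32.0 in fibroblasts, a log2 fold change of 2.79 (SE 0.23). Relb had 91.6 to 260 CPM against 27.4 to 47.8, a log2 fold change of 2.23 (SE 0.20). Neither gene's groups overlapped. The median of all genes in this comparison was -0.45, and the median of the 10 members 1.05.

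Nfkb2 and Relb also rose together in chondrocyte-like cells (log2 0.81, SE 0.15, and 0.67, SE 0.14) and in perivascular-like cells (0.71, SE 0.19, and 0.79, SE 0.16). The perivascular Nfkb2 call was lost in a paired permutation test within libraries (0.64, adjusted p = 0.242). It was higher in 11 of 12 libraries and at 0 CPM in peak replicate 1. Nfkb2 fell in osteoblast-like cells (-0.55, SE 0.18), a call lost with RLE factors, total counts or DESeq2, or without peak replicate 2, resolved replicate 1, resolved replicate 3, resolving replicate 3 or rest replicate 1. The chondrocyte Relb call was lost with cells thinned to 2000 UMIs (0.47). Rela, the canonical activating subunit, passed in muscle-like cells and in no other type (0.79, SE 0.20). It was higher within 5 of 8 libraries, and the call was lost in the paired permutation test (adjusted p = 0.111). Rest replicate 3, at 211 CPM, was far above the other muscle-like libraries, and the value without it was 0.74.

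Among the feedback genes, Nfkbia had a median of 2483 CPM in vascular endothelial-like cells (1848 to 3574) and of 1194 in fibroblasts (779 to 2137), a log2 fold change of 0.84 (SE 0.13). Muscle-like cells, with 2226 to 3813 CPM, lay above the pooled fibroblasts of every library (log2 1.04, SE 0.15). In tenocyte-like cells Nfkbia passed narrowly (0.51, SE 0.13), and the call was lost under 8 other settings, with 0.40 for total counts and 0.11 without upper limits on genes and UMIs per cell, and without resolved replicate 1, resolving replicate 2, rest replicate 2 or rest replicate 3.

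Tnfaip3, whose product A20 ends signalling from the TNF receptor, rose in perivascular-like cells (log2 1.30, SE 0.16) and muscle-like cells (1.42, SE 0.24). It fell in chondrocyte-like cells (-0.63, SE 0.17) and lymphatic endothelial-like cells (-1.59, SE 0.39), and the latter value rests on 15 UMIs. The perivascular libraries spread from 35.4 to 246 CPM, with a median of 95.2. Nfkbiz rose in perivascular-like cells (0.89, SE 0.12) and fell in lymphatic endothelial-like cells (-1.03, SE 0.18), where it did not pass with total counts (-0.49).

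Birc3 and Nfkb2 had the largest fitted differences in muscle-like cells, within their errors of each other. Birc3 had 142 to 445 CPM there, with a median of 308, and 23.3 to 53.7 CPM in fibroblasts, a log2 fold change of 2.81 (SE 0.21, edgeR adjusted p = 7.12e-21). The groups did not overlap. Birc3 also rose in tenocyte-like cells (0.98, SE 0.16), a call lost with the 6% of cells of highest doublet score removed (0.40) or with cells limited to 10% mitochondrial UMIs (0.45), and fell in proliferating cells (-0.70, SE 0.22). The mean difference of log2(CPM + 1) within the 6 proliferating libraries was -0.37, short of the threshold.

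Of the TNF receptors, Tnfrsf1b (TNFR2) had 14.9 to 41.1 CPM in vascular endothelial-like cells against 5.95 to 18.7 in fibroblasts (log2 0.98, SE 0.20). In lymphatic endothelial-like cells it had 0 UMIs in 10 libraries, of 744414 UMIs in all, where 3 counts would be 4.03 CPM. Fibroblasts, at 10.8 CPM over all libraries, were therefore at least 2.69-fold higher, for counting error only. Tnfrsf1b was also lower in perivascular-like cells (-2.45, SE 0.47, on 7 UMIs), osteoblast-like cells (-1.59, SE 0.29) and chondrocyte-like cells (-0.74, SE 0.26), the last a call lost without resolved replicate 3, resolving replicate 1, resolving replicate 3 or rest replicate 1.

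Tnfrsf1a, the widely expressed receptor TNFR1, had closer levels among types. Its mean was 266 CPM ± 58.2 (SD, n = 12) in perivascular-like cells, 252 ± 40.0 in vascular endothelial-like cells and 163 ± 15.7 in fibroblasts. It fell in lymphatic endothelial-like cells (-0.98, SE 0.15) and osteoblast-like cells (-0.58, SE 0.10), and with total counts neither passed (-0.44 and -0.48), nor did the osteoblast value with RLE factors (-0.49). The perivascular and vascular levels did not differ beyond their spread.

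The other genes of the pathway were described from fixed lists. Of 12 other subunits and inhibitors tested, 7 rose and 0 fell in muscle-like cells, led by Nfkbie (log2 3.30, SE 0.36), which encodes IκBε. In vascular endothelial-like cells 7 rose and 1 fell, led by Nfkbid (4.43, SE 0.28), which encodes a nuclear IκB protein. Of 28 target genes, 9 rose and 16 fell there, and the adhesion molecules Selp (7.80, SE 0.22) and Sele (7.61, SE 0.27) were highest over fibroblasts. The median log2 fold change of these targets was -1.19, against 0.03 for all genes. These counts stand beside 27.4% of all genes that rose and 27.1% that fell in vascular endothelial-like cells, and 12.3% and 29.7% in muscle-like cells. Of 20 kinases and adapters 11 rose and 4 fell in vascular endothelial-like cells, and of 11 ligands and receptors 1 rose and 7 fell.

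Genes that respond to tissue dissociation moved in some of the same cells. Of 20 such genes, 10 rose and 3 fell in muscle-like cells, 12 rose and 0 fell in tenocyte-like cells, and 0 rose and 17 fell in proliferating cells. Their part in the members' values was not tested.

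Scaling shifted some comparisons. The median of all genes in lymphatic endothelial-like cells was -0.23 with TMM, 0.07 with RLE factors and 0.30 with total counts alone, and the share of calls that were higher moved from 34.8% to 54.2% and 68.3%. The share also moved by over 10 percentage points with total counts for chondrocyte-like (43.5% to 33.5%), perivascular-like (40.4% to 59.6%), proliferating (40.1% to 56.6%), tenocyte-like (43.9% to 30.02%), vascular endothelial-like (50.3% to 65.7%), osteoblast-like (43.0% to 54.0%) and muscle-like cells (29.3% to 40.5%). With total counts 3 members were lower in lymphatic endothelial-like cells, where 1249 of 8805 genes were lower. In muscle-like cells 7 were higher, beside 1381 genes. In perivascular-like cells 6 were higher and 1 lower, beside 2232 and 1515 genes. Vascular endothelial-like cells had 5 higher and 1 lower, beside 3371 and 1758 genes. The place of the vascular count below the share of all genes thus depends on the scaling. Osteoblast-like cells had 2 lower (1189 genes), and tenocyte-like cells 1 higher and 1 lower (540 and 1259 genes). RLE factors also gave 2 lower in osteoblast-like cells (1208 genes), and 6 higher and 1 lower in perivascular-like cells (1853 and 1869 genes). The members gained were Nfkbia and Tnfrsf1a in perivascular-like cells (0.52 and 0.58 with RLE), Relb, Nfkbiz and Tnfrsf1a in vascular endothelial-like cells (0.65, 0.62 and 0.62 with total counts) and Tnfrsf1b, lower, in tenocyte-like cells (-0.73 with total counts).

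Within fibroblasts, 1 cluster stood out by level. Cluster 5, of 1300 cells and led by Ifi205, Ccl7, Ptx3 and Ccl2, had 430 to 662 CPM of Nfkb1 over 12 libraries, with a median of 479. The other fibroblasts of the same libraries averaged 137 CPM. The clusters were drawn from these cells, so the following are descriptions with no test.

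Cluster 5 lay above the other fibroblasts in 12 of 12 libraries for 6 members, the precursors of both NF-kB branches and all 4 feedback genes. The mean log2 differences were 1.94 for Nfkb1 (SD 0.35), 1.48 for Birc3 (SD 0.40), 1.16 for Tnfaip3 (SD 0.53), 0.86 for Nfkb2 (SD 0.47), 0.71 for Nfkbia (SD 0.35) and 0.68 for Nfkbiz (SD 0.37). Relb was higher in 11 of 12 libraries by 0.51 (SD 0.39) and Tnfrsf1b in 9 of 12 by 0.54 (SD 0.64). Rela was higher in 10 of 12 by 0.15 (SD 0.38) and Tnfrsf1a in 9 of 12 by 0.16 (SD 0.28). In the order of clusters by mean level, cluster 5 was further than 1 SD above the next for Nfkb1, Tnfaip3 and Birc3, and within it for Nfkb2, Relb, Nfkbia, Nfkbiz and Tnfrsf1b.

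**Figure D2:**
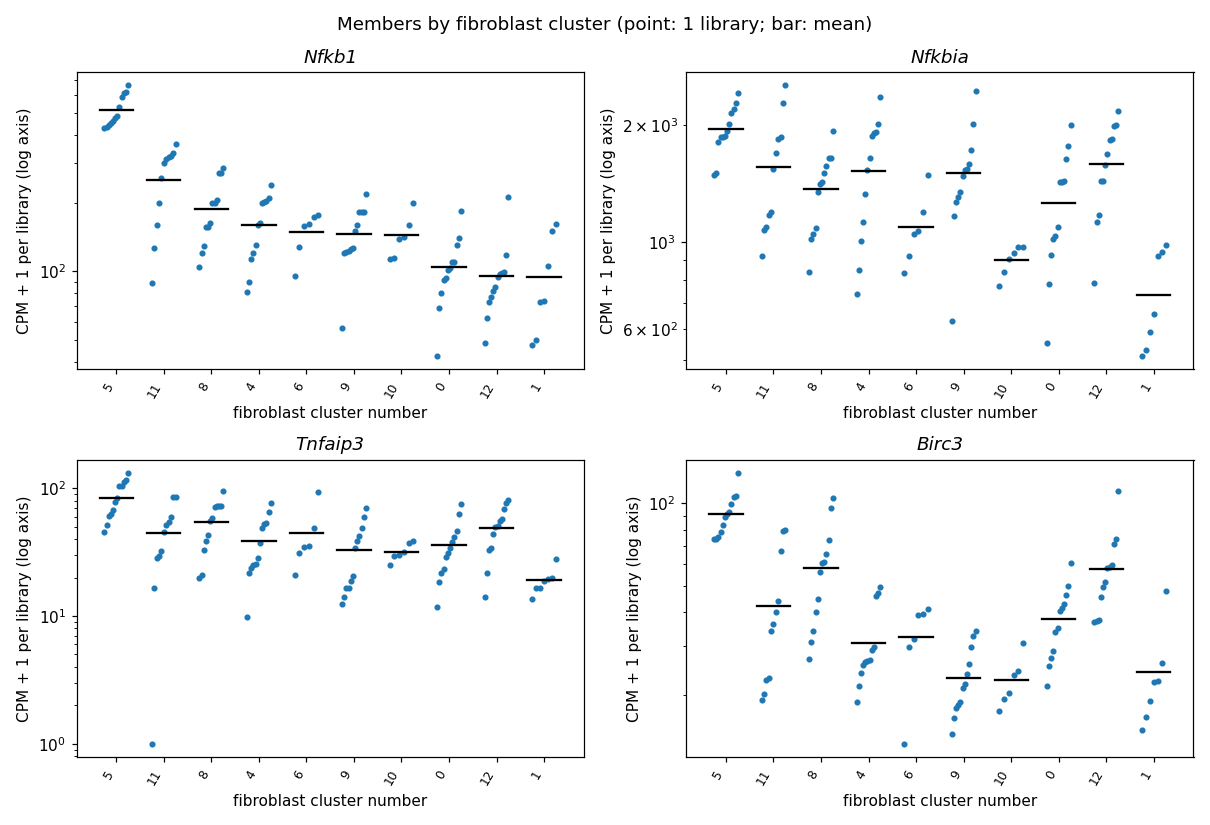
CPM + 1 (log axis) of 4 members in 10 fibroblast clusters, with 1 point per library and bars at the mean. Cluster 5 averages 515 CPM of Nfkb1 and cluster 11, the next, 253 CPM.

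Cluster 1, led by C1qtnf3 and Spon2, had the lowest mean of Nfkb1, Rela, Nfkbia, Nfkbiz and Tnfaip3 among 10 clusters but the third highest of Tnfrsf1a, at 181 CPM, and 374, 795 and 343 of its 1633 cells came from suffixes 7, 8 and 9. Nfkbia averaged 734 CPM there (SD 209, n = 7) and was below the other fibroblasts in 7 of 7 libraries. Nfkb1 averaged 93.7 CPM in cluster 1 (n = 7), within 1 SD of the 94.7 CPM of cluster 12 (n = 12). The means of the clusters cover different libraries. Cluster 12 was lowest for Tnfrsf1b, at 3.69 CPM, below the other fibroblasts in 12 of 12 libraries.

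The lining layer, which faces the joint cavity, was set against the sublining. Lining-like (1036 cells, led by F13a1 and the lubricin gene Prg4) and sublining-like fibroblasts (1364 cells) differed past the threshold in 1 member of 10, against 27.6% of 7710 genes (13% higher in lining-like cells and 14.6% lower). Rela had 28.7 to 67.5 CPM in lining-like cells with a median of 53.6, and 28.7 to 57.4 with a median of 39.4 in sublining-like cells. The log2 difference was 0.51 (SE 0.10, edgeR adjusted p = 0.000145), the ranges overlapped, and the call was lost without resolved replicate 3 or rest replicate 1. For Nfkb1 the difference was -0.05, with a 95% interval of -0.30 to 0.21.

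For 2 members the lining-like cluster lay to one side of the pooled rest of the fibroblasts in every library, again as a description. Tnfrsf1b averaged 17.6 CPM there and 10.2 CPM in the rest, and was higher in 12 of 12 libraries. Birc3 averaged 21.9 CPM against 39.1 CPM and was lower in 12 of 12. Other clusters had like levels: cluster 5 averaged 17.7 CPM of Tnfrsf1b, and cluster 10 averaged 21.6 CPM of Birc3. Against the sublining alone, these differences did not pass: 0.51 for Tnfrsf1b (95% interval 0.07 to 0.96, edgeR adjusted p = 0.0678) and -0.27 for Birc3 (-0.58 to 0.03).

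The sample labels divide the libraries by arthritis stage. In fibroblasts, Nfkb1 had 116 to 181 CPM in the libraries labelled rest, 160 to 211 in those labelled peak, 115 to 198 in those labelled resolving and 99.9 to 274 in those labelled resolved. The 4 groups overlapped. No member passed the threshold at any stage, and neither did any of 11799 genes (0%). At an unadjusted p-value under 0.05, edgeR gave 95, 94 and 63 genes (0.81%, 0.80% and 0.53%) at the 3 stages and 0 members. With no differences at all, a larger share of genes would fall under 0.05. The lack of calls therefore does not show that levels were equal between stages. DESeq2 called 0, 1 and 0 genes. With the run of 3 barcode suffixes as a block, edgeR again called 0 genes at each stage, in fibroblasts and in vascular endothelial-like cells.

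The intervals were wide. The peak log2 differences of the members in fibroblasts lay between -0.23 and 0.36, with standard errors of 0.17 to 0.42, and the 95% interval for Nfkb1 ran from -0.34 to 1.06. In vascular endothelial-like cells 0 of 6963 genes (0%) passed in edgeR, or in DESeq2. There 90, 179 and 110 genes (1.29%, 2.57% and 1.58%) had an unadjusted edgeR p-value under 0.05. Tnfaip3 was the 1 member among them, in the libraries labelled resolved (0.59, SE 0.25, edgeR adjusted p = 0.9999). None of the lists of other genes had a gene past the threshold at any stage.

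Several members had like levels within a suffix run and different levels between runs. Nfkb2 in fibroblasts had 29.0 to 32.0 CPM in suffixes 4 to 6, and 12.6 to 19.7 CPM in suffixes 1 to 3. Relb had 47.0 to 47.8 CPM in suffixes 4 to 6 and 27.4 to 34.2 CPM in suffixes 7 to 9. Nfkbia had 1763 to 2137 CPM in suffixes 10 to 12 and 779 to 981 in suffixes 7 to 9. No test was made between runs, whose meaning the labels do not give.

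**Figure D3:**
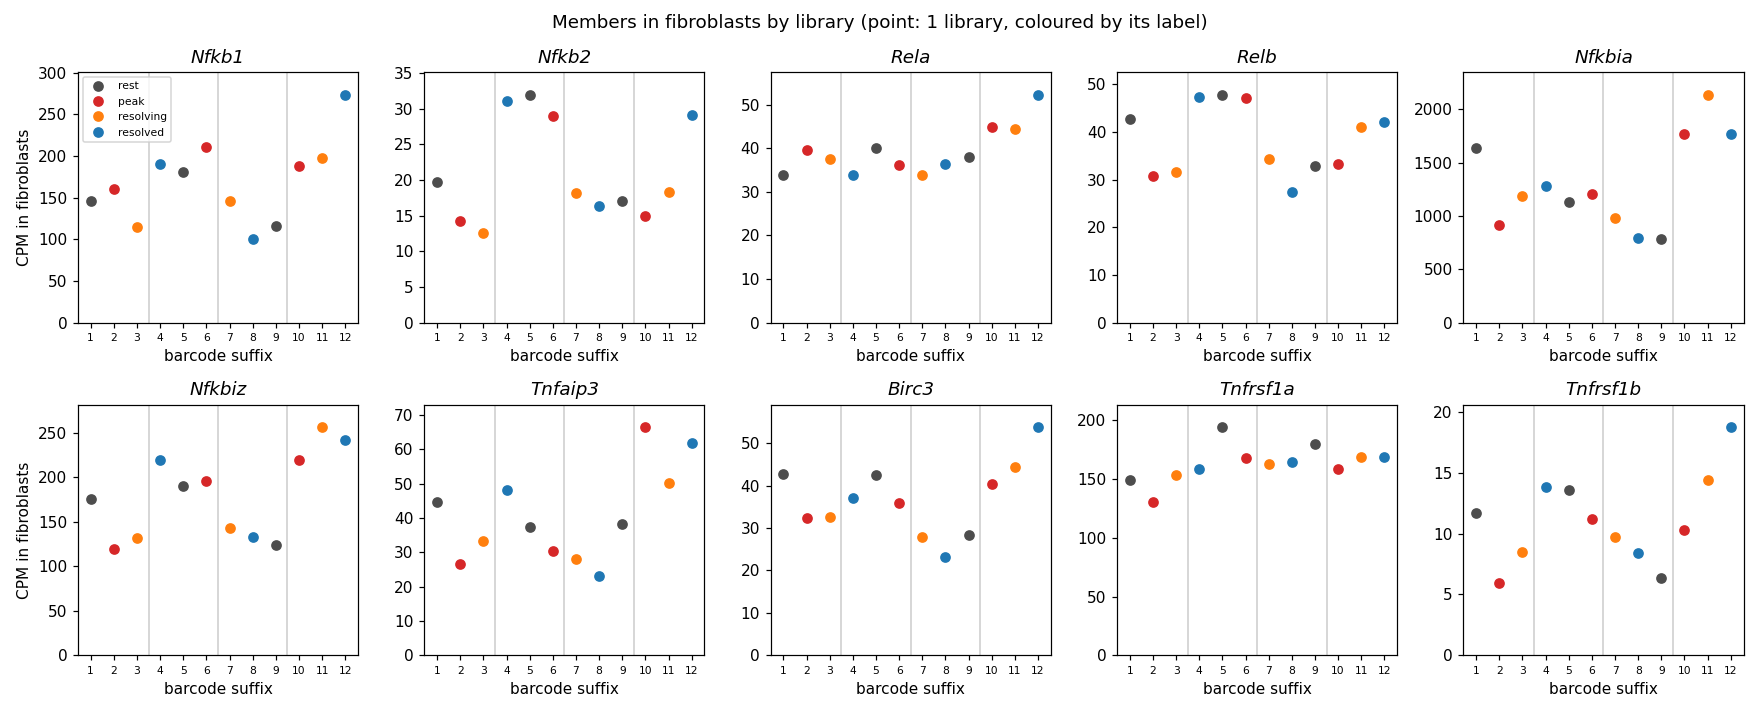
CPM of each member in fibroblasts by barcode suffix, 1 point per library coloured by its label, with grey lines between runs of 3 suffixes. Points of one colour are spread over the runs: Nfkb2 lies at 29.0 to 32.0 CPM in suffixes 4 to 6, which carry 3 different labels.

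Between suffixes 4 to 6 and 1 to 3, 5 members lay above without overlap and 0 below, where 25.4% of 7230 genes lay above and 33.5% below. Between suffixes 7 to 9 and 4 to 6, 0 lay above and 7 below (28.2% and 21.4% of genes). Between suffixes 10 to 12 and 1 to 3, 6 lay above and 0 below (6.80% and 17.8%). These contrasts share libraries. The fibroblasts of the runs also lay in different clusters. Suffixes 4 to 6 gave 297, 380 and 383 of the cells of cluster 6, and suffixes 7 to 9 gave 374, 795 and 343 of those of cluster 1. The mean Nfkbia of cluster 1 was the lowest and its mean Nfkb1 was among the lowest, over different libraries than other clusters. The summed dissociation genes had 25807 to 33795 CPM in suffixes 1 to 3, 19942 to 21129 in 4 to 6, 20086 to 23307 in 7 to 9 and 25346 to 33099 in 10 to 12. They were lower in suffixes 4 to 6 than in 1 to 3. They overlapped between 7 to 9 and 4 to 6, and between 10 to 12 and 1 to 3. The part of the clusters and of the dissociation genes in the members' values was not tested.

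Vascular endothelial-like cells of the same libraries also differed between runs. Nfkb2 had 33.8 to 54.1 CPM in suffixes 4 to 6 and 17.1 to 24.5 CPM in suffixes 1 to 3, so it was higher in the same run as in fibroblasts. Nfkbia had 2022 to 2420 CPM in suffixes 4 to 6 and 3207 to 3574 CPM in suffixes 1 to 3. Birc3 had 21.2 to 38.0 CPM and 51.0 to 63.4 CPM in those runs. In this contrast 2 members lay above and 4 below without overlap, where 16.2% of 7866 genes lay above and 16.9% below. In perivascular-like cells Tnfaip3 had 184 to 246 CPM in suffixes 10 to 12, and 35.4 to 157 CPM in all other libraries.

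The study centres on hexokinase 2 (Hk2), a glycolytic enzyme, so fibroblasts with at least 1 Hk2 UMI were set against those with none within each library. There were 5482 positive and 6373 negative cells, 31.3% to 62.9% positive per library, and a cell with no UMI may still express the gene. Of the 10 members, 8 rose in positive cells, where 4.33% of 10002 genes rose and 2.41% fell (6.74% either way). The median log2 difference was 0.68 over the members and -0.00 over all genes, and with total counts alone 6 members passed and 273 genes rose and 576 fell, against 433 and 241.

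**Figure D4:**
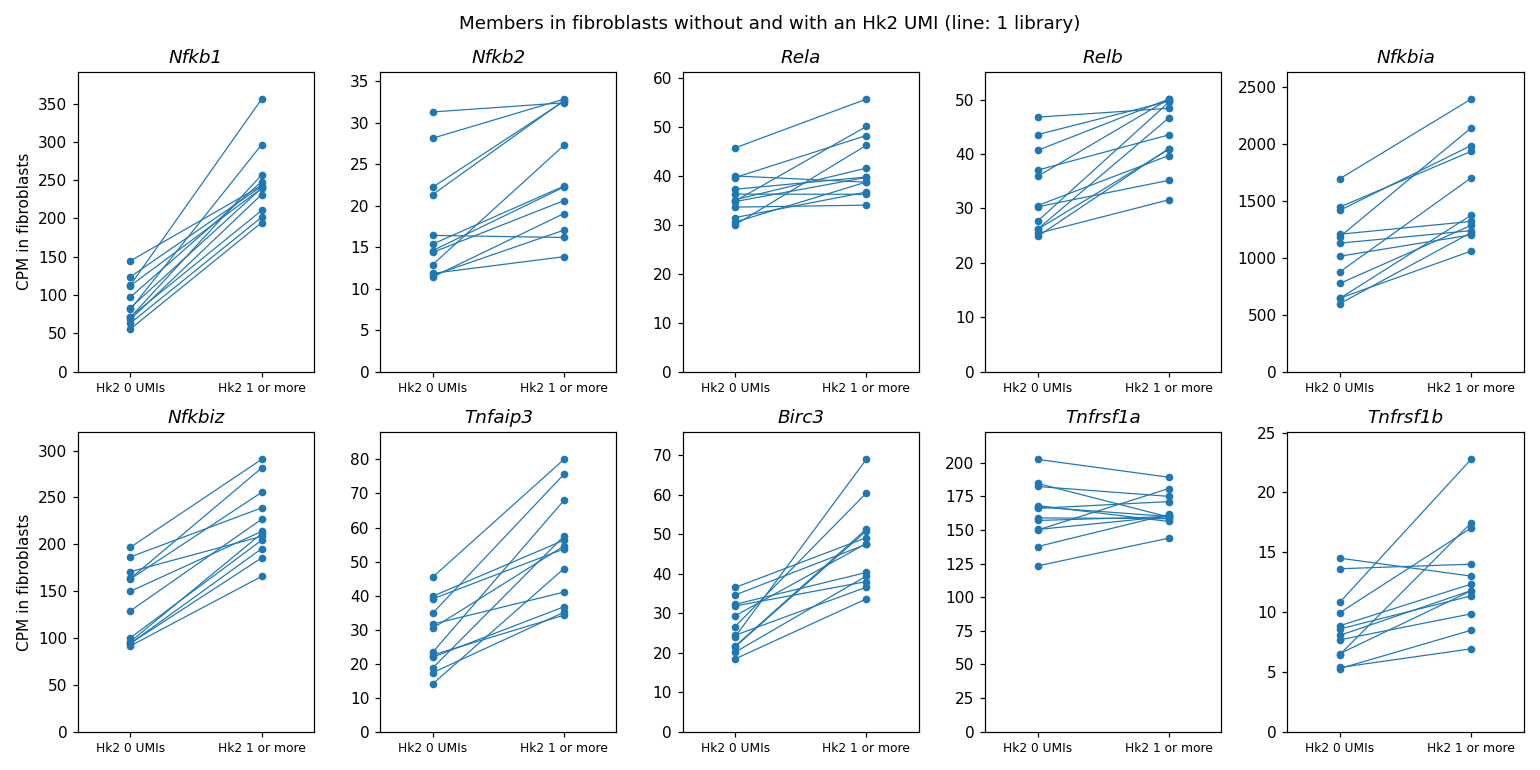
CPM of each member in Hk2-negative and Hk2-positive fibroblasts, with 1 line per library. All 12 lines rise for Nfkb1, Relb, Nfkbia, Nfkbiz, Tnfaip3 and Birc3, and 6 of 12 rise for Tnfrsf1a.

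Nfkb1 had 195 to 356 CPM in positive cells, with a median of 241, and 55.6 to 145 in negative cells, with a median of 82.3. The groups did not overlap, and the log2 difference was 1.61 (SE 0.09, edgeR adjusted p = 1.54e-10). The feedback genes followed in size, with Tnfaip3 at 1.02 (SE 0.11), Birc3 at 0.91 (SE 0.10), Nfkbiz at 0.87 (SE 0.07) and Nfkbia at 0.73 (SE 0.08). Each was higher in 12 of 12 libraries.

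Tnfrsf1b (0.63, SE 0.12), Nfkb2 (0.55, SE 0.09) and Relb (0.52, SE 0.07) passed by less. With total counts the calls of Nfkb2 (0.43) and Relb (0.40) were lost, and that of Relb also under other settings, or without peak replicate 1, resolved replicate 3 or rest replicate 3. Rela (0.36, SE 0.06) and Tnfrsf1a (0.15, SE 0.05) had adjusted p-values under 0.05 in edgeR but differences below the threshold of 0.5. Tnfrsf1a was higher in 6 of 12 libraries.

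Median UMIs per cell were 5625 to 8989 in positive and 4500 to 6687 in negative cells. Positive cells were deeper in 10 of 12 libraries, and shallower in rest replicate 3 (5834 against 6687) and resolving replicate 2 (5625 against 6263). With equal numbers of positive and negative cells drawn per library in bins of like UMIs, 7 members passed. Positive cells were also unevenly spread: 79.3% of cluster 5 was positive, against 29.5% of cluster 0. With equal numbers drawn per library and cluster, 5 members passed. Their log2 differences were 1.26 for Nfkb1, 0.86 for Tnfaip3, 0.79 for Nfkbiz, 0.79 for Birc3 and 0.68 for Nfkbia. Nfkb2, Relb and Tnfrsf1b then lay at 0.38, 0.39 and 0.45, and Nfkb2 was also lost without rest replicate 1. Both draws left out positive as well as negative cells, so they rest on fewer cells. The counts of members after the draws are given without the share of all genes.

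The other lists stand beside 4.33% of all genes that rose and 2.41% that fell by Hk2 status. Of 25 target genes 16 rose and 0 fell, led by the chemokines Cxcl2 (1.90, SE 0.18) and Ccl2 (1.78, SE 0.16) and the pentraxin Ptx3 (1.88, SE 0.21). Ccl2 and Ptx3 are also among the leading genes of cluster 5, of which 79.3% was positive. The counts of these lists are given without matching in cluster. Of 12 ligands and receptors 4 rose and 0 fell, led by Il1rl1 (1.65, SE 0.15), the receptor for interleukin 33. Of 13 other subunits and inhibitors 5 rose and 0 fell, led by Bcl3 (1.07, SE 0.13), and of 25 kinases and adapters 1 rose and 1 fell. Of 20 dissociation genes 7 rose and 0 fell, and their part was not tested.

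Over the 26 clusters, the members were compared by Pearson's r of log2(CPM + 1), a description over points that share libraries. Nfkbia and Tnfaip3 were most alike (r = 0.87), followed by Nfkbia and Nfkbiz (0.85) and Rela and Relb (0.83). Relb and Tnfrsf1b were least alike (0.23). Among all 11616 genes compared, the genes most like each member were Fosl1, Il17ra and Samd4b for Nfkb1 (0.81 to 0.84), and Mier3, Nfkbia and Zfp954 for Tnfaip3 (0.86 to 0.88). They were Stat3, Kmt2a and Atf6 for Rela (0.89 to 0.91), and Zbtb21, Kdm6b and Hspa8 for Birc3 (each 0.88).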

How the data were processed

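The deposited values were counts of UMIs per gene and cell, which the authors made with Cell Ranger on mm10 from 10x 3′ libraries, with 0 columns of other samples. The methods' limits on genes (500 to 5000) and UMIs (500 to between 20000 and 40000 by library) were applied. Cells were clustered in scanpy 1.11.5 (2000 variable genes, 30 components, 20 neighbours, Leiden resolution 1), leaving out the members, the pathway lists, the dissociation list and Hk2, and named from markers (at least 4 detected in 20% of cells at log2 1, or 5 of 7 fibroblast markers in 30%). Scrublet called 56 doublets, which were kept. UMIs were summed per library over at least 10 cells and tested two-sided in edgeR 4.0.16 (R 4.3.3, TMM, filter on low counts, Benjamini-Hochberg), with the library as a block except by stage. DESeq2 1.42.0 was an alternative, as was, for cell types, a paired exact permutation test on log2(CPM + 1) within libraries. Scripts were tested on simulated data. The members and lists were chosen with earlier results of these data known. All 10 members, the 3 largest changes each way of each list, and the 3 genes most like a member could be named, of which a selection is given. Replicate numbers did not pair libraries (r -0.58 to 0.76). Nfkb1 overlaps Gm43430 on its strand, so reads could be shared. Nfkb2 overlaps Psd on the opposite strand only. Floors cover counting error only, and intervals of log2 differences are from the edgeR fits across libraries. Of 27998 genes, 27645 are in GENCODE M21.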

Additional observations from a re-analysis of the deposited data

Results flagged for a closer look

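Of 29 groups of 6 to 10 libraries, 3 held a library far from the others by Dixon's ratio at the 95% level, where chance gives about 1 in 20. Rela had 111 CPM in the lymphatic endothelial-like cells of resolving replicate 1. Rela had 211 CPM in the muscle-like cells of rest replicate 3. Birc3 had 53.5 CPM in the proliferating cells of rest replicate 3. In 30 comparisons of a stage with rest, no member moved in opposite directions in every library of fibroblasts and of vascular endothelial-like cells.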

How the results depend on the processing

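The count of members past the threshold over cell types stayed between 28 and 35 under every alternative run, against 32. The number of all genes called also moved with the setting. In lymphatic endothelial-like cells 1289 genes were higher with TMM and 2690 with total counts. The counts of members given here stand without such shares, so a steady count is not by itself a result about the members. Which members passed differed between the alternatives. Lining against sublining gave 2 members with doublets removed, at Leiden resolution 0.5 and with DESeq2, and 0 with thinned cells and without the library block, and 0 to 1 with single libraries left out, and the cause was not tested. By Hk2 status 5 members passed with equal numbers of positive and negative cells drawn per cluster, and 7 to 8 with single libraries left out. No stage gave a member under any alternative, and the replicate block gave 0 in fibroblasts and in vascular endothelial-like cells. For the members called in the report, under alternatives, 915 values kept their side of the threshold, 61 fell short and none reversed. Stage results rest on the labels as deposited, while the nearest fibroblast profiles follow the suffix run. The muscle-like and lymphatic sums rest on 253 and 172 cells.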
